A study of Danio rerio with 4 samples.

Results

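The distal-less homeobox (Dlx) genes of the pharyngeal arches were followed in sorted zebrafish neural crest cells. The members were taken by name, as every row of the deposited table named dlx1a, dlx2a, dlx2b, dlx3b, dlx4a, dlx4b, dlx5a or dlx6a, and all 8 were present among 26267 genes. RNA came from cells sorted for the sox10:DsRed reporter at 20 hours post fertilization (hpf), which both groups carried, and was converted to amplified cDNA for bulk RNA sequencing. There were 2 samples of the mutant group and 2 of the wild-type group, each called a biological replicate in the labels and each a pool of embryos. The mutant embryos are named for nr2f2 and nr2f5 in the sample titles, but by the genotype field only nr2f5 is mutant, and the state of nr2f2 is unknown. The 2 mutant pools drew on 88 and 35 embryos and the 2 wild-type pools on 110 and 120, and the labels do not say which number belongs to which replicate. By its title, the study addressed the control by Nr2f nuclear receptors of fate in cranial ectomesenchyme, the crest population that builds the facial skeleton.

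Dlx proteins are homeodomain transcription factors related to the Drosophila protein Distal-less. Most vertebrate Dlx genes lie in pairs that face each other on the chromosome and share enhancers, and the genes of a pair are usually expressed in similar places. In the arches the pairs are nested from dorsal to ventral. The genes dlx1a and dlx2a are expressed along most of each arch, whereas dlx5a, dlx6a, dlx3b and dlx4b are restricted to more ventral and intermediate cells under the control of endothelin and Bmp signals. In the mouse, loss of Dlx5 and Dlx6 gives the lower jaw an upper jaw form. Zebrafish dlx3b and dlx4b also act in the otic and olfactory placodes, and the sox10 reporter is known to label the otic vesicle as well as the crest.

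Values are TPM, a level corrected for transcript length and scaled to one total per library, so genes can be compared with each other. TPM hides the sequencing depth, which is unknown, and a value of 0 is described only as listed at 0. Pairs of values are given in the order of replicates 1 and 2 throughout. The check of the labels came first. The mutant pools held 46.5 and 47.1 TPM of the mutated gene nr2f5, and the wild-type pools 579 and 559 TPM. For nr2f2 the mutant pools held 67.2 and 51.7 TPM and the wild-type pools 73.5 and 59.3 TPM. Crest identity was present in all samples: the 8 crest genes examined summed to 1576 to 1783 TPM in mutant and 1048 to 1267 TPM in wild-type cells, with sox10 the most abundant.

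The pair dlx3b and dlx4b was several-fold lower in the mutant cells, dlx2a was moderately lower, and the pair dlx5a and dlx6a showed no call in either direction. Of the 6 members abundant enough to be tested (a mean of 1 TPM or more), 3 fell, 0 rose and 3 did not pass, at an adjusted p under 0.05. Over all 14217 genes tested, 2.95% fell and 1.13% rose (419 and 161 genes; 400 and 362 under median-ratio scaling, 254 and 235 with quantile normalization). With no filter on low values, or with limma without trend and robust, 0 members were called. The median log2 fold change was -0.78 over the 6 tested members and -0.16 over all tested genes. The mutant samples both lay below the wild-type samples for 4 of the 6 members, against 34.9% of all tested genes, and both lay above them for 0 members, against 18.2%. Log2 fold changes are mutant against wild type on the log2(TPM + 1) scale, from limma across all tested genes, and p-values are adjusted over all of them by the Benjamini-Hochberg method. In sorted bulk samples fewer cells that express a gene and less RNA per cell cannot be told apart.

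**Figure D1:**
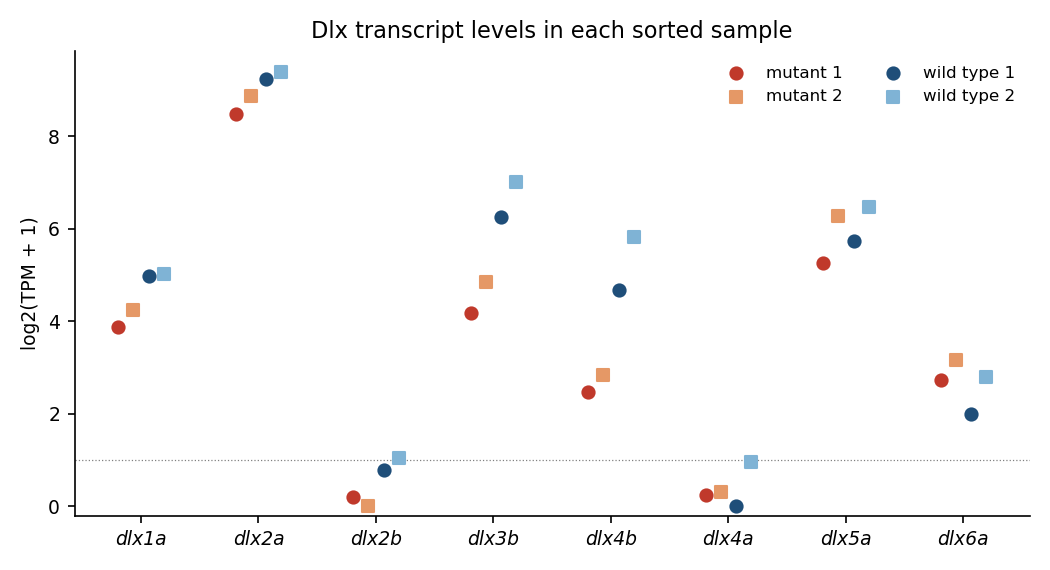
Level of each Dlx gene as log2(TPM + 1) in each of the 4 samples, with points for mutant replicates 1 and 2 and wild-type replicates 1 and 2; the dotted line marks 1 TPM. The mutant points lie below the wild-type points for dlx1a, dlx2a, dlx3b and dlx4b and mix with them for dlx5a and dlx6a.

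In wild-type cells the levels spanned a wide range. The order by mean TPM was dlx2a (630), dlx3b (101), dlx5a (69.6), dlx4b (40.0), dlx1a (31.0), dlx6a (4.46), dlx2b (0.901) and dlx4a (0.476). The gene dlx2a, which acts in early arch ectomesenchyme, ranked 268 by mean wild-type TPM among all 26267 genes. The wild-type ranges of dlx3b and dlx5a overlapped, as did those of dlx5a and dlx4b, of dlx4b and dlx1a, and of dlx2b and dlx4a. Within each wild-type sample, however, dlx3b stood above dlx5a, dlx5a above dlx4b, and dlx2b above dlx4a. The order of dlx4b and dlx1a differed between the wild-type samples, so that pair cannot be ranked. The steps from dlx2a to dlx3b, from dlx1a to dlx6a and from dlx6a to dlx2b were clear of overlap. The order by mean differed in mutant cells, where dlx5a (56.9 TPM) followed dlx2a (409 TPM). Then came dlx3b (22.4), dlx1a (15.8), dlx6a (6.83) and dlx4b (5.37 TPM). The mutant ranges of dlx3b and dlx1a overlapped, as did those of dlx6a and dlx4b. Within each mutant sample, however, dlx3b stood above dlx1a and dlx6a above dlx4b. Levels of dlx5a lay above those of dlx3b in both mutant samples and below them in both wild-type samples. The same held for dlx6a against dlx4b. For dlx4b against dlx1a the change of order was not seen in every sample, because wild-type replicate 1 already held less dlx4b than dlx1a.

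Within the pair expressed along most of the arch, both genes were lower in mutant cells but only dlx2a was called. The dlx2a level was 355 and 464 TPM in the mutant pools, with 598 and 662 TPM in the wild-type pools. The groups did not overlap, and dlx2a fell by 0.63 ± 0.14 on the log2 scale (limma with SE, n = 2 per group, adjusted p = 0.033). The dlx1a level was 13.8 and 17.9 TPM in the mutant pools, with 30.6 and 31.4 TPM in the wild-type pools, again without overlap. Its log2 fold change of -0.94 ± 0.24 did not pass (adjusted p = 0.067), and its 95% interval ran from -1.48 to -0.39. The mean dlx1a level was 1.96-fold and the mean dlx2a level 1.54-fold higher in wild-type than in mutant cells. The dlx2a call was fragile: it was lost under median-ratio scaling (log2 fold change -0.45, adjusted p = 0.21) and when either mutant replicate or wild-type replicate 2 was left out (adjusted p = 0.061 to 0.19).

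The deposited table holds 2 transcripts of dlx2a, and the larger carried the difference. That transcript (ENSDART00000111386) made up 94.4% and 96.5% of dlx2a TPM in the mutant samples and 96.8% and 96.3% in the wild-type samples. It stood at 335 and 448 TPM in the mutant pools, with 579 and 638 TPM in the wild-type pools. Its log2 fold change among transcripts, -0.65 ± 0.15, missed the threshold (adjusted p = 0.083), where 1.56% of all 20835 transcripts tested fell. The minor transcript (ENSDART00000183979) overlapped between groups, at 20.0 and 16.1 TPM in the mutant pools, with 19.4 and 24.2 TPM in the wild-type pools.

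The pair dlx3b and dlx4b had the lowest fold changes of the tested members. The dlx3b level was 17.2 and 27.6 TPM in the mutant pools, with 75.5 and 127 TPM in the wild-type pools. The highest mutant value was well below the lowest wild-type value, and dlx3b fell by 2.12 ± 0.30 on the log2 scale (limma with SE, n = 2 per group, adjusted p = 0.0075). The dlx4b level was 4.55 and 6.20 TPM in the mutant pools, with 24.5 and 55.5 TPM in the wild-type pools. It fell by 2.59 ± 0.38 (adjusted p = 0.0069), although the wild-type samples themselves differed 2.27-fold. A fall of 2 or more on this scale was found in 1.44% of all tested genes. The mean TPM in wild-type over mutant cells was 4.53-fold for dlx3b and 7.44-fold for dlx4b. Both genes kept their sign under all alternatives, but the dlx4b call was lost when either mutant replicate was left out (adjusted p = 0.070 and 0.059). The dlx3b call was lost under median-ratio scaling (log2 fold change -1.94, adjusted p = 0.057).

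The ventral pair dlx5a and dlx6a, which in the mouse gives the lower jaw its identity, was not called. The dlx5a level was 37.1 and 76.8 TPM in the mutant pools, with 51.8 and 87.5 TPM in the wild-type pools, so the groups overlapped. The log2 fold change was -0.33 ± 0.42 (limma with SE, n = 2 per group, adjusted p = 0.70), with a 95% interval from -1.38 to 0.72. The dlx6a level was 5.68 and 7.99 TPM in the mutant pools, with 3.01 and 5.92 TPM in the wild-type pools, and these overlapped as well. Its log2 fold change was 0.56 ± 0.38 (adjusted p = 0.44), with a 95% interval from -0.30 to 1.41. It was 0.16 or 0.95 on leaving out wild-type replicate 1 or 2, and 0.34 with mutant replicate 2 left out. The intervals allow a moderate change in either direction for dlx5a, and the test does not show that this pair stayed the same. The sign of dlx5a turned positive when mutant replicate 1 (0.19) or wild-type replicate 2 (0.04) was left out.

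Of the 3 dlx6a transcripts in the table, 1 (ENSDART00000102778) held most of the signal, at 4.27 and 7.05 TPM in the mutant pools, with 3.01 and 5.01 TPM in the wild-type pools. Another (ENSDART00000149799) stood at 1.41 and 0.943 TPM in mutant cells, and had a wild-type value above 0 only in replicate 2 (0.914 TPM). The remaining one was listed at 0 in all 4 samples.

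**Figure D2:**
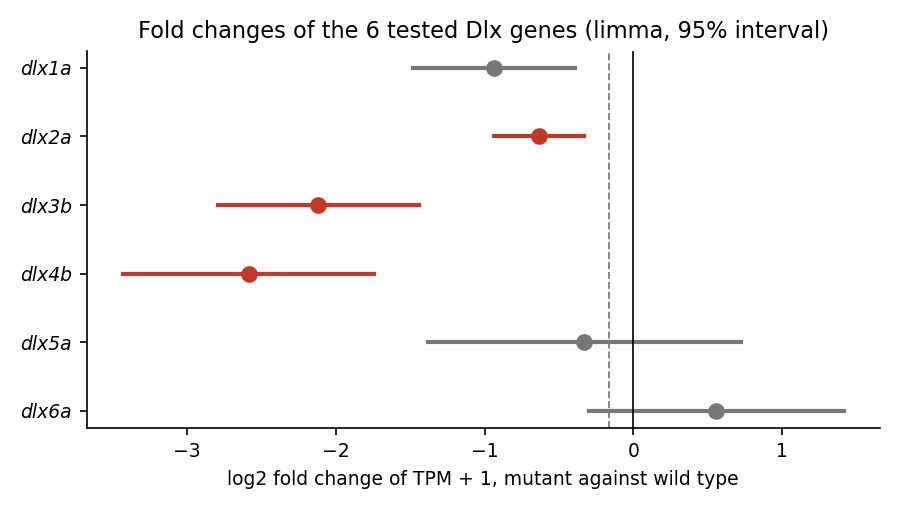
Log2 fold change of TPM + 1, mutant against wild type, for the 6 tested Dlx genes, with points for the limma estimate and lines for its 95% interval; red marks an adjusted p under 0.05, the solid line 0 and the dashed line the median of all tested genes (-0.16). The intervals of dlx3b and dlx4b lie wholly below -1, whereas those of dlx5a and dlx6a cross 0.

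The unpaired members dlx2b and dlx4a were below the filter and were not tested in the main fit. The gene dlx2b, a duplicate of dlx2a, was at 0.146 TPM in mutant replicate 1, listed at 0 in mutant replicate 2 and at 0.724 and 1.08 TPM in the wild-type samples. Its rows belong to 2 gene IDs, of which ENSDARG00000116017 had a value above 0 only in wild-type replicate 2 (0.412 TPM). The gene dlx4a, a duplicate of dlx4b, was at 0.191 and 0.232 TPM in mutant cells, listed at 0 in wild-type replicate 1 and at 0.952 TPM in the other wild-type pool. Fitted without a filter on low values, neither passed (adjusted p = 0.23 for dlx2b and 0.78 for dlx4a, limma). Levels this low, at unknown depth, give no ground for a direction.

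The spread between replicates went the same way for all tested members. In each group the sample numbered 2 held more of the gene than the sample numbered 1 for 6 of 6 members, against 16.8% of all tested genes. The difference was 1.03-fold for dlx1a to 2.27-fold for dlx4b between the wild-type samples, and 1.30-fold for dlx1a to 2.07-fold for dlx5a between the mutant samples. The labels do not say whether samples with the same number share anything beyond that number.

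Because a share within a sample does not depend on how that sample was scaled, the composition of the Dlx transcripts was compared next. The 8 genes summed to 434 and 600.5 TPM in the mutant pools and to 784 and 972 TPM in the wild-type pools. The pair dlx3b/dlx4b made up 5.02% and 5.63% of this sum in the mutant pools, with 12.8% and 18.8% in the wild-type pools. Its mean share was 5.33% ± 0.43 (SD, n = 2) in mutant and 15.8% ± 4.3 (SD, n = 2) in wild-type cells, a difference of -10.5 percentage points (exact permutation test, two-sided, p = 0.333). The pair dlx1a/dlx2a made up 85.0% and 80.2% of the sum in the mutant pools, with 80.2% and 71.4% in the wild-type pools. The lower mutant share and the higher wild-type share were nearly equal. The pair dlx5a/dlx6a made up 9.86% and 14.1% in the mutant pools, with 6.99% and 9.61% in the wild-type pools, without overlap. Shares of one sum depend on each other, and a share can rise because other genes fell. The summed TPM of dlx5a/dlx6a overlapped, at 42.8 and 84.8 in the mutant pools and 54.8 and 93.4 in the wild-type pools. With 2 samples against 2, no permutation test can give a p below 0.333. The p-values were adjusted over the 9 measures compared (3 shares, 3 ratios within pairs and 3 between pairs), and the lowest adjusted value was 0.375.

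**Figure D3:**
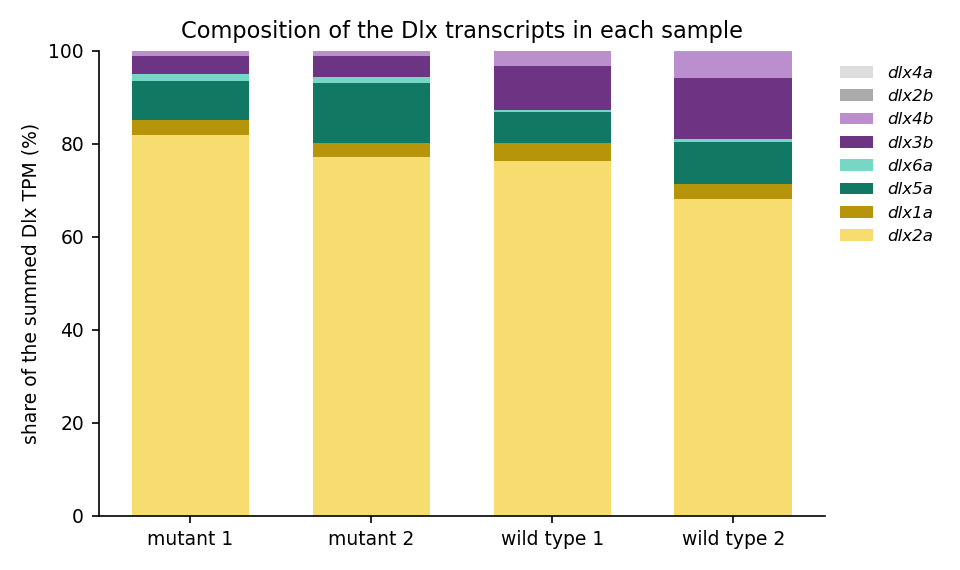
Share of each Dlx gene in the summed Dlx TPM (%), 1 stacked bar for each of the 4 samples. The combined dlx3b and dlx4b part is 5.02% and 5.63% in the mutant bars and 12.8% and 18.8% in the wild-type bars.

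The balance between the ventral pairs had opposite signs in the mutant and wild-type samples. Ratios between pairs were not among the planned measures, and this one shares its values with the dlx3b and dlx4b falls above. The log2 ratio of the dlx5a/dlx6a sum to the dlx3b/dlx4b sum was 0.94 and 1.30 in the mutant pools, with -0.85 and -0.96 in the wild-type pools. The summed TPM of dlx5a/dlx6a was therefore above that of dlx3b/dlx4b in both mutant samples, and the opposite held in both wild-type samples. The difference in mean ratio was 2.03 on the log2 scale (exact permutation test, p = 0.333, the smallest this design allows) and ran from 1.85 to 2.21 when any 1 sample was left out. The log2 ratio of dlx3b/dlx4b to dlx1a/dlx2a was -4.02 and -3.79 in the mutant pools, with -2.64 and -1.92 in the wild-type pools, also without overlap, a difference of -1.63 (exact permutation test, p = 0.333). The ratio of dlx5a/dlx6a to dlx1a/dlx2a overlapped between the groups, with a difference of 0.40 (exact permutation test, p = 0.667). That difference was 0.70 or 0.11 on leaving out mutant replicate 1 or 2, and 0.09 or 0.71 on leaving out wild-type replicate 1 or 2.

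Within each pair the genes differed in fold change, and all 3 ratios kept the groups apart. Single genes did so for 34.9% (mutant lower) and 18.2% (mutant higher) of all tested genes. No such share for ratios is given here. The log2 ratio of dlx2a to dlx1a was 4.59 and 4.62 in the mutant pools, with 4.25 and 4.36 in the wild-type pools. That of dlx4b to dlx3b was -1.71 and -1.99 in the mutant pools, with -1.59 and -1.18 in the wild-type pools. That of dlx6a to dlx5a was -2.51 and -3.11 in the mutant pools, with -3.72 and -3.68 in the wild-type pools. The differences of the means were 0.30, -0.47 and 0.89 (exact permutation test, p = 0.333 for each). The dlx4b to dlx3b difference moved to -0.27 without wild-type replicate 2, and the dlx6a to dlx5a difference to 0.58 without mutant replicate 1. With a pseudocount of 5 TPM in place of 1, the dlx4b to dlx3b groups overlapped (difference -0.09).

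**Figure D4:**
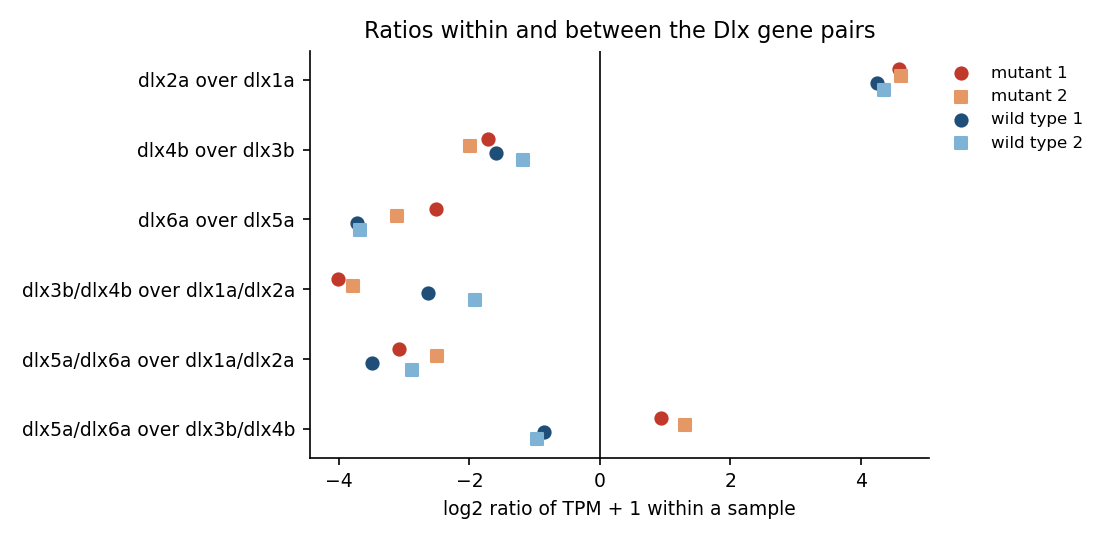
Log2 ratios of TPM + 1 within each of the 4 samples, the upper 3 rows between the genes of a pair and the lower 3 rows between summed pairs. The ratio of dlx5a/dlx6a to dlx3b/dlx4b lies above 0 in both mutant samples (0.94 and 1.30) and below 0 in both wild-type samples (-0.85 and -0.96).

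The genes that act around the Dlx genes in the arches mostly did not pass, but few genes pass over the whole table (2.95% fell and 1.13% rose). With so few samples, a gene that did not pass is not shown to be unchanged. Among 21 genes of endothelin and Bmp input, which sets ventral Dlx expression, 18 were tested, 1 fell and 0 rose. Their median log2 fold change was -0.10. It was 0.11 or -0.17 without mutant replicate 1 or 2, and 0.18 or -0.25 without wild-type replicate 1 or 2. The list holds Bmp antagonist genes beside genes that carry the signals, so its median does not measure the strength of the input. The gene that fell was ednraa, an endothelin receptor gene, by 2.03 ± 0.41 (limma, adjusted p = 0.026), a call that held without wild-type replicate 2 (adjusted p = 0.013) but was lost without any other 1 sample (0.063 to 0.13). The ligand gene edn1, also named with its values in view, was under the filter. The other endothelin receptor gene of the list, ednrab, was picked here with its values in view; its log2 fold change of 0.90 ± 0.20 missed the threshold (adjusted p = 0.070).

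Among 19 ventral and intermediate arch genes, several of which depend on Dlx genes in mouse or zebrafish, 14 were tested, 1 fell and 2 rose, with a median of 0.09 (0.04 with wild-type replicate 2 left out). The genes msx3 and foxf2a rose by 0.82 ± 0.19 and 1.62 ± 0.38, and foxc1b fell by 0.77 ± 0.15 (limma, adjusted p = 0.041, 0.045 and 0.025). These 3 calls held without wild-type replicate 1 and were each lost when any other 1 sample was left out (adjusted p = 0.054 to 0.28), and that of foxc1b also under median-ratio scaling (adjusted p = 0.076). The ventral arch regulator hand2, picked with its values in view, was at 6.56 and 6.64 TPM in the mutant pools, with 8.05 and 15.7 TPM in the wild-type pools, and missed the threshold (adjusted p = 0.30). The arch cartilage regulator barx1, picked in the same way, was at 4.49 and 12.7 TPM in the mutant pools, with 13.3 and 41.5 TPM in the wild-type pools, and missed the threshold (adjusted p = 0.29). Values of hand2 and barx1 therefore lay lower in the mutant cells without overlap, which was also so for 34.9% of all tested genes. Of the 14 tested genes of this list, 3 lay lower in this way and 4 lay higher without overlap.

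Among 14 dorsal arch genes, all tested, nr2f5 and prrx1b fell, nr2f1b rose and 11 did not pass. Their median was -0.47 (-0.27 with wild-type replicate 1 left out). The gene nr2f5 is the mutated gene used above to check the labels, so its fall is no separate result about the dorsal arch. The Notch ligand gene jag1b, which restricts ventral Dlx programmes in the zebrafish arches and was picked with its values in view, was at 0.772 and 0.188 TPM in the mutant pools, with 2.37 and 2.60 TPM in the wild-type pools (adjusted p = 0.14). Among 15 genes of cranial ectomesenchyme, 13 were tested, 5 fell, 1 rose and the median was -0.68. The falls of twist1a, which is required for ectomesenchyme, and snai2 were 0.93 ± 0.11 and 0.96 ± 0.13 on the log2 scale (limma, adjusted p = 0.0028 and 0.0049). These lie between those of dlx2a and dlx3b. The fall of prrx1b was larger than those of dlx3b and dlx4b, with a log2 fold change of -3.91 ± 0.35 (limma, adjusted p = 0.00062). The gene prrx1b is also in this list, where prrx1a and sox9a, named after their values were seen, make up the other falls and fli1a rose.

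**Figure D5:**
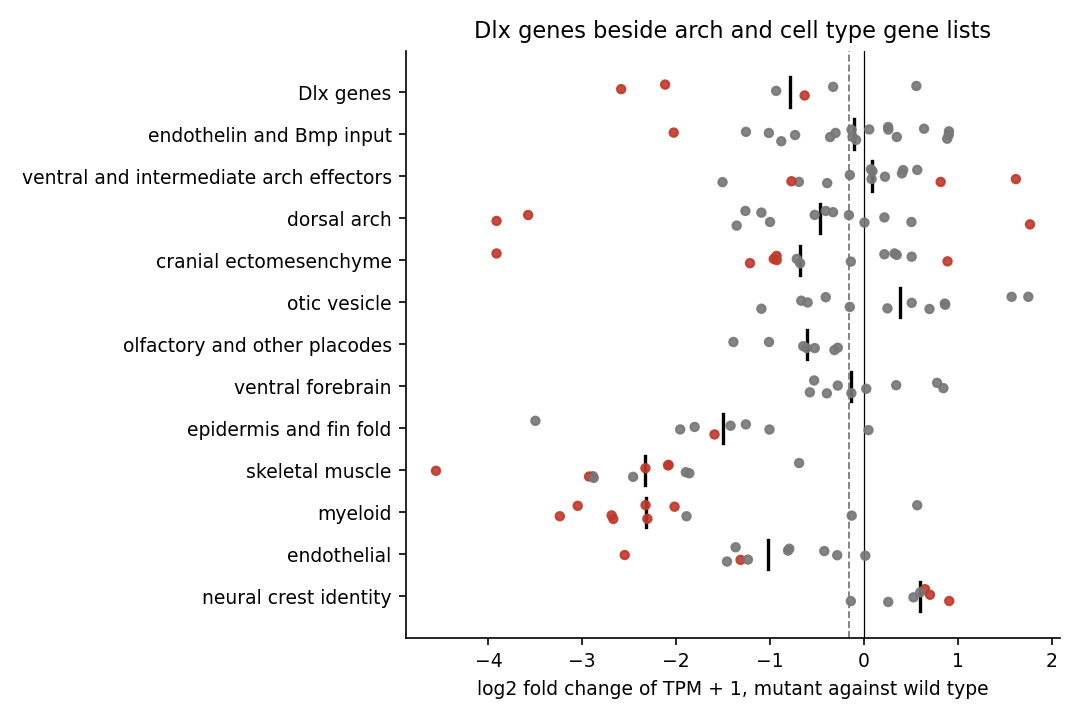
Log2 fold change of TPM + 1, mutant against wild type, of the tested Dlx genes and of the tested genes of 12 lists, 1 point per gene with a black bar at each list's median; red marks an adjusted p under 0.05 and the dashed line the median of all tested genes. The Dlx median is -0.78, that of the otic vesicle list 0.38 and that of the ectomesenchyme list -0.68.

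Other tissues that express Dlx genes were examined through their markers, since the sort could hold some of their cells. Otic vesicle genes summed to 183 and 138 TPM in the mutant pools, with 162 and 120 TPM in the wild-type pools, so the groups overlapped. Of 12 otic genes tested, 0 were called by limma (3 had an unadjusted p under 0.05, 1 of them lower in mutant cells), and their median was 0.38, but -0.10 when mutant replicate 1 was left out, 0.02 when wild-type replicate 2 was, and 0.88 when wild-type replicate 1 was. Their most abundant members were gbx2 and eya1, which are expressed in other tissues too, and gbx2 is also in the ventral list. Olfactory and other placode genes summed to 68.6 and 58.5 TPM in the mutant pools, with 95.5 and 104 TPM in the wild-type pools. Of 7 tested, 0 were called (3 had an unadjusted p under 0.05, all lower in mutant cells), with a median of -0.61, and six4b and ebf2 were the most abundant. Ventral forebrain genes overlapped, at 53.2 and 44.2 TPM in the mutant pools, with 52.2 and 40.5 TPM in the wild-type pools, with 0 of 9 called (1 had an unadjusted p under 0.05) and a median of -0.13, which became -0.45 or -0.04 on leaving out mutant replicate 1 or 2, and 0.24 or -0.30 on leaving out wild-type replicate 1 or 2. The most abundant were sp8a and sp8b, and the GABA synthesis genes gad1b and gad2, named after their values were seen, were under the filter. The share of all tested genes with an unadjusted p under 0.05 in this fit is not given here. The unadjusted counts of these 3 lists therefore have no background to be read against.

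Epidermis and fin fold genes summed to 378 and 185 TPM in mutant cells and 225 TPM in wild-type replicate 1. In wild-type replicate 2 they summed to 3251 TPM. That sample also held the highest level of every Dlx member except dlx6a. Of 8 tested, only cdh1 passed, and it fell by 1.59 ± 0.37 (limma, adjusted p = 0.045, lost unless the sample left out was wild-type replicate 1), and the median of the list was -1.51 with all samples, -0.02 without wild-type replicate 2 and -3.43 without wild-type replicate 1. When wild-type replicate 2 was left out, dlx3b fell by 1.74 and dlx4b fell by 2.01 on the log2 scale (limma). The part of otic, placode, forebrain and epidermal cells in the Dlx differences was not tested.

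Markers of muscle, myeloid and endothelial cells were mostly lower in the mutant cells, unlike those of the otic and forebrain lists. Skeletal muscle genes summed to 199 and 86.7 TPM in the mutant pools, with 580.2 and 1869 TPM in the wild-type pools, with 5 of 11 falling, among them smyhc1, unc45b, desma and srl, and a median of -2.33. Myeloid genes summed to 55.0 and 63.7 TPM in the mutant pools, with 199 and 299 TPM in the wild-type pools, with 7 of 10 falling, among them ncf1, spi1b, cebpa and lcp1, and a median of -2.32. Endothelial genes summed to 48.2 and 36.4 TPM in the mutant pools, with 120 and 61.6 TPM in the wild-type pools, with stab2 and fli1b falling of 10 tested and a median of -1.02. In the opposite direction, the crest genes crestin, inka1a and foxd3 rose, 3 of 7 tested, with a median of 0.60 (0.35 if mutant replicate 1 was left out, 0.34 if wild-type replicate 2 was). No list had a marker at 0 in all samples. The part of muscle, myeloid and endothelial cells in the Dlx differences was not tested either. Of the 30 list genes called, 7 stayed called whichever 1 sample was left out (nr2f5, nr2f1b, prrx1b, ncf1, spi1b, lcp1 and smyhc1). The calls of the other 23 were each lost without at least 1 sample, among them twist1a and snai2 without mutant replicate 2 (adjusted p = 0.057 and 0.052) and sox9a and fli1b whichever sample was left out.

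The genes whose pattern over the 4 samples was most like each pair were named from the 8255 genes that averaged at least 5 TPM. Likeness was the root mean square difference of centred log2(TPM + 1) from the mean of the pair, over only 4 samples, and is a description. For dlx1a/dlx2a the 3 most alike were alx4a, postnb and NINJ1, at 0.0368 to 0.0386. The gene alx4a, a homeobox gene of the anterior face, stood at 19.2 and 24.7 TPM in the mutant pools, with 34.9 and 38.1 TPM in the wild-type pools. For dlx3b/dlx4b they were grap2b, arhgap45b and rnd3b, at 0.0791 to 0.179. The gene grap2b, which encodes a signalling adaptor, stood at 1.16 and 1.84 TPM in the mutant pools, with 9.12 and 17.9 TPM in the wild-type pools. For dlx5a/dlx6a they were epb41a, sumf2 and chac1, at 0.0459 to 0.122. Taken from gene to gene, the difference between the genes of a pair was 0.157 for dlx1a/dlx2a, 0.291 for dlx3b/dlx4b and 0.492 for dlx5a/dlx6a. Each gene lies closer to the mean of its pair than to the other gene. These values therefore cannot be set against those of the named genes, which were measured from the mean. The mean of a pair is therefore not the pattern of either gene alone.

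No tested gene beside the Dlx loci was called, but few genes pass over the whole table. Gene order was read from the RefSeq annotation of assembly GRCz12tu, a later build than that of the deposited table, taking the 2 nearest protein-coding genes on each side of the 5 loci. Of these 20 genes 12 were abundant enough to test, and limma called 0 (1 had an unadjusted p under 0.05, again without a background share). Over all tested genes 2.95% fell and 1.13% rose, so 0 calls among 12 genes says little about these neighbours. At the dlx3b and dlx4b locus only si:ch211-131k2.2 was abundant enough to test. Beside dlx1a and dlx2a, hat1 stood at 147 and 149 TPM in the mutant pools, with 130 and 139 TPM in the wild-type pools, and dync1i2a at 125 and 139 against 184 and 145 TPM. Beside dlx3b and dlx4b, ace and itga3b were listed at 0 in both mutant samples, with ace at 0.330 and 2.104 TPM and itga3b at 0.400 and 0.0147 TPM in the wild-type pools, and g6pc1a.1 was listed at 0 throughout. Beside dlx5a and dlx6a, the proteasome subunit gene sem1 was even across samples, at 252 and 260 TPM in the mutant pools, with 233 and 263 TPM in the wild-type pools. In the same annotation a lncRNA gene overlaps dlx1a and another overlaps dlx2b, and trioa spans dlx5a and dlx6a. Whether counting used strand was not given in the sources used here, so reads from overlapping exons could not be told apart.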

How the data were processed

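The authors deposited 1 table of TPM per Ensembl transcript, with a column for each of the 4 samples. Kallisto and build GRCz11 appear, with no role or version, per the submitters' processing notes; annotation and strand setting are not given in the sources used here. TPM keeps no depth, so no counting interval or count model was used. Of 65905 transcripts, 57775 had values, which were summed per gene name (gene ID where blank) to 26267 genes. The 14217 genes averaging at least 1 TPM were tested as log2(TPM + 1) with limma 3.58.1 in R 4.3.3 (trend and robust), mutant against wild type, with Benjamini-Hochberg adjustment and calls at an adjusted p under 0.05. The procedure was also tested on simulated data with spread drawn from its own fitted model. That test cannot show whether the model suits these data. Ratios and shares were compared with exact two-sided permutation tests. Labels name the samples biological replicates but no further source, so p-values measure the spread between these pools. Members, gene lists and tests were chosen with earlier results of these data known. Named genes were the 8 Dlx genes, nr2f5 and nr2f2, the 3 genes most alike to each pair, locus neighbours, and up to 4 called genes per list (otherwise its 2 most abundant); others are marked. Of the names on the lists, nkx3.2, lhx6a and isl1a matched no gene name in the table. No sequences are shown because none were in the sources used here.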

Additional observations from a re-analysis of the deposited data

How the results depend on the processing

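The fall of dlx3b was called under 15 of 19 alternatives, that of dlx4b under 13 and that of dlx2a under 9; dlx1a and dlx6a were called under none, and all 5 kept their sign under each. With no filter on low values the log2 fold changes of dlx2a, dlx3b and dlx4b were -0.63, -2.12 and -2.59 (adjusted p = 0.20, 0.12 and 0.13), 0 members fell, and 3 genes fell and 1 rose in the whole table. With limma without trend and robust the same fold changes had adjusted p = 0.27, 0.11 and 0.098, 0 members fell, and 0 genes fell and 0 rose in all, where 2531 genes had an unadjusted p under 0.05. Median-ratio scaling moved the median of all tested genes from -0.16 to 0.00, gave dlx2a -0.45 and dlx3b -1.94 (adjusted p = 0.21 and 0.057), left 1 member called as falling, and gave 400 falls and 362 rises in the whole table, against 419 and 161 in the main test. Quantile normalization gave 254 falls and 235 rises and kept the 3 member calls. Tested per transcript dlx2a was at -0.65 (adjusted p = 0.083), and per gene ID 289 genes rose. When 1 sample was left out, dlx2a ran from -0.82 to -0.44, dlx3b from -2.49 to -1.74, dlx4b from -3.16 to -2.01, dlx1a from -1.11 to -0.76, dlx5a from -0.84 to 0.19 and dlx6a from 0.16 to 0.95; the members that fell numbered 0 to 3, genes that fell 82 to 538 and genes that rose 28 to 182, with the low counts without mutant replicate 1 (154 and 41) and mutant replicate 2 (82 and 28). The value 0 came without mutant replicate 1 when the genes of the full test were kept, a choice made after seeing the data, where dlx3b had an adjusted p = 0.053 in place of 0.045. Then the lone sample of a group is assumed to vary like the others. With a pseudocount of 5 TPM the within-pair differences were 0.17 for dlx2a to dlx1a and -0.091 for dlx4b to dlx3b. The cause of these changes was not tested. The replicate number as a block kept all member calls, with adjusted p = 0.021, 0.0041 and 0.0091 for dlx2a, dlx3b and dlx4b; deviations of same-numbered samples were not correlated across genes (r = -0.01), so the numbers were not taken to pair the samples. The unknown depth limits what can be said of dlx2b, dlx4a and other genes near 1 TPM.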
